A study of Mus musculus with 7 samples.

Results

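Neutrophil granule and calprotectin genes were followed in inflamed mouse prostate. The set held 10 genes chosen by name, S100a8, S100a9, Ngp, Retnlg, Csf3r, Cxcr2, Il1r2, Trem1, Ltf and Camp, out of 16019 genes listed, and all 10 were among them. They were chosen with earlier results of these data known. Of 7 prostate samples, 3 were of vehicle-treated mice, which received methyl-β-cyclodextrin alone (replicates 1, 3 and 4), and 4 of mice treated with LIT-927 (replicates 1 to 4) at 25 mg/kg per day, both by intraperitoneal injection for 14 days. LIT-927 is a ligand of the chemokine CXCL12, a small compound that neutralises it, so that CXCR4 is no longer engaged. All animals of both groups carried experimental autoimmune prostatitis (EAP), an inflammation of the gland raised by immunisation, and no uninflamed prostate was analysed here. Strain and age are not stated in the labels. Nor do they say which samples were separate animals, and the p-values then reflect only sample-to-sample spread, some of it possibly technical.

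Neutrophils are short-lived leukocytes that leave the blood for inflamed tissue and kill microbes with enzymes and peptides stored in granules. Granule proteins are made in the bone marrow while the cell matures, so a circulating neutrophil keeps few of their messages, whereas the calprotectin subunits S100A8 and S100A9 are abundant in mature cells. Several of these products are not unique to neutrophils: lactoferrin is secreted by glandular epithelia of the reproductive tract, and epithelia can make calprotectin during inflammation.

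Levels are given as FPKM, that is, fragments scaled by gene length and by library total. Library totals lay between 32100860 and 35292137 fragments, and whole fragments per gene could be recovered from the values. The members were scarce. Only S100a8, S100a9 and Ltf reached 1 FPKM in any library, and 9 of the 10 rested on at most 100 fragments in every library. The tissue pieces differed in make-up within both groups. Summed FPKM of seminal vesicle secretion genes ranged from 51020 to 563800 with vehicle and from 142400 to 301500 with LIT-927, summed prostate luminal markers ranged from 6374 to 166300 over all 7 libraries, and the urothelium list was high in vehicle replicate 3 and LIT-927 replicate 3 (294.9 and 344.0, against 39.89 to 67.91 elsewhere). In bulk tissue, fewer neutrophils and less RNA per neutrophil cannot be told apart.

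Vehicle prostates held messages of all 10 genes in all 3 libraries, while each LIT-927 library had 3 to 5 of them at 0. Of all 16019 genes, 208, 200 and 547 were at 0 in vehicle replicates 1, 3 and 4. In LIT-927 replicates 1 to 4 these numbered 417, 488, 800 and 287. Vehicle detection of Retnlg, Cxcr2, Camp and Trem1 rested on as few as 2 fragments in a library. S100a9, Ngp, Retnlg, Csf3r and Camp were lower in every LIT-927 library than in every vehicle library. Ltf and S100a8 did not share this pattern. Of the 10 genes, 5 thus had groups that did not overlap, against 2.12% of all genes. That background depends on scaling and on single libraries: it was 5.0% under median-of-ratios scaling and 5.06% under upper-quartile scaling, with the same 5 genes, and 16.8% without vehicle replicate 4, with 6 of the 10. In limma, 0 of the 10 and 0 of 16019 genes (0.0%) passed an adjusted p of 0.05. At an unadjusted p under 0.05 stood 6 of the 10, all lower with LIT-927 (S100a9, Ngp, Retnlg, Csf3r, Il1r2 and Camp), against 3.68% of all genes in either direction and 2.96% in that direction. The mean log2(FPKM + 1) was lower with LIT-927 for 9 of the 10 genes and for 44.5% of all genes. The median difference in log2(FPKM + 1), counted as LIT-927 minus vehicle throughout, was -0.215 over the 10 and 0.0241 over all genes.

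**Figure D1:**
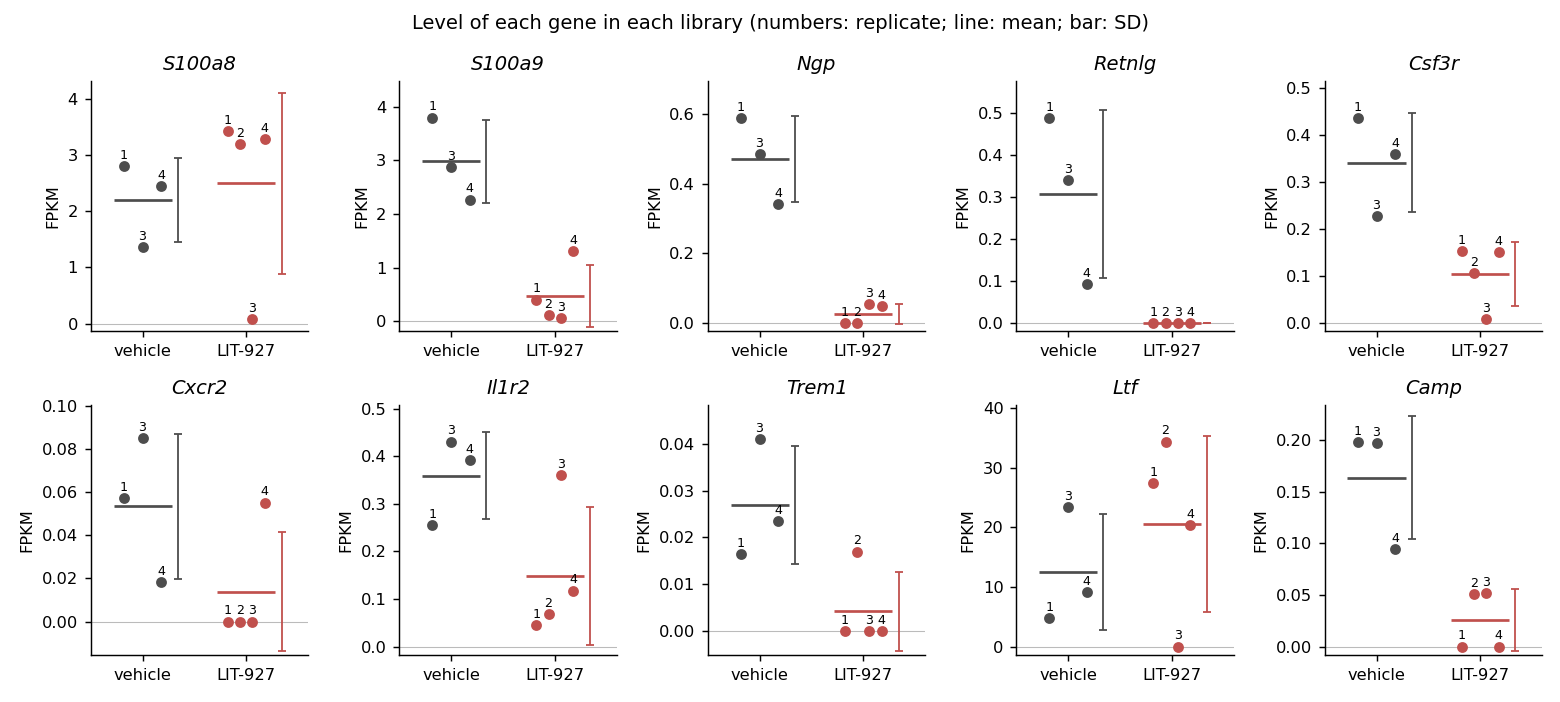
Level of each of the 10 genes in each library, in FPKM on linear axes that differ between panels. Points are libraries with their replicate number, lines are group means and bars to the right are SDs (n = 3 vehicle, n = 4 LIT-927). The LIT-927 points of S100a9, Ngp, Retnlg, Csf3r and Camp lie below every vehicle point, while those of S100a8 and Ltf span the vehicle points.

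The 250 bases before the start sites of 4 members are shown here because these genes mark the range of behaviour: both calprotectin subunits, whose patterns across the groups were unlike, Ngp with the smallest p of all genes, and Ltf, the most abundant member, with overlapping groups. S100a8 (chromosome 3, 90668978 to 90670035, plus strand) and S100a9 (chromosome 3, 90692632 to 90695721, minus strand) lie 22.6 kb apart. Camp (chromosome 9, 109847379 to 109849617, minus strand), Ngp (chromosome 9, 110419747 to 110423012, plus strand) and Ltf (chromosome 9, 111019271 to 111042767, plus strand) lie on 1 chromosome, with 570129 bases between Camp and Ngp and 596258 between Ngp and Ltf. These gene spans are GENCODE's. Sequences and their start sites are from RefSeq on GRCm38.p6, which places the starts of S100a8, Ngp and Ltf downstream of GENCODE's, so these 3 windows reach into the spans given here. They are printed 5′ to 3′ on the gene's strand. Capitals mark matches, on either strand, to a C/EBP motif (TTNNGNAA), a PU.1 core (GAGGAA) and a TATA box (TATAAA). C/EBP and PU.1 proteins are transcription factors of myeloid cells.
S100a8, chr3:90668821-90669070, plus strand: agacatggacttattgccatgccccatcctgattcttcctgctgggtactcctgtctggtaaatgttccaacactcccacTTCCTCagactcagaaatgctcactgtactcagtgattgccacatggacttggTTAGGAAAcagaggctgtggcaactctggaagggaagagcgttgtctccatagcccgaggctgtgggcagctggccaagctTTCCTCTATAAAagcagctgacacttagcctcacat
S100a9, chr3:90695722-90695971, minus strand: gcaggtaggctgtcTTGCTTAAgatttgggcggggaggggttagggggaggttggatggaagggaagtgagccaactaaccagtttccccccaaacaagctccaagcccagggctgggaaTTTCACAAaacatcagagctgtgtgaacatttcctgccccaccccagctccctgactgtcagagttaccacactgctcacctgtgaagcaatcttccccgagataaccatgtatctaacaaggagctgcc
Ngp, chr9:110419558-110419807, plus strand: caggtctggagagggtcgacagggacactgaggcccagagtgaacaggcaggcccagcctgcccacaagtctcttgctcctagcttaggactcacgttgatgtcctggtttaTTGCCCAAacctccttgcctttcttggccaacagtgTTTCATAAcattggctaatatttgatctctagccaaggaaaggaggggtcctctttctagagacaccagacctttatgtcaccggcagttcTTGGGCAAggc
Ltf, chr9:111019042-111019291, plus strand: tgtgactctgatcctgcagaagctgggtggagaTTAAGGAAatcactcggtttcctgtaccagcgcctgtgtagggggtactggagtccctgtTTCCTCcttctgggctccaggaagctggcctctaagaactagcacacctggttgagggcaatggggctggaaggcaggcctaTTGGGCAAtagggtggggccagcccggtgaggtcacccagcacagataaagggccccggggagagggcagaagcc

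Of the 10 members, 6 held the C/EBP letters in this window (S100a8, S100a9, Ngp, Ltf, Retnlg and Trem1), as did 36.9% of 27025 promoters of the same length. The PU.1 letters stood in 5 (Cxcr2, S100a8, Csf3r, Ltf and Trem1), against 23.1% of promoters, and the TATA letters in S100a8 alone, against 13%. Ngp held 3 C/EBP matches, at -138, -102 and -11 counted back from the start site. In S100a8 the PU.1 match at -36 adjoins the TATA match at -30. Ltf, with overlapping groups, held letters of both factors, and the window of Camp held none of the 3 motifs. A match is a run of letters and not a measured binding site, and no match says only that the letters are not in this window.

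S100a9 encodes the larger subunit of calprotectin, the zinc- and calcium-binding complex that makes up much of the neutrophil cytosol. It stood at 3.8, 2.87 and 2.27 FPKM with vehicle (replicates 1, 3 and 4). The LIT-927 libraries, in the order of replicates 1 to 4, had 0.409, 0.117, 0.0595 and 1.31 FPKM. The highest LIT-927 library, replicate 4, was thus below the lowest vehicle library, and the other 3 were far lower. Group levels were 0.475 ± 0.580 FPKM (SD, n = 4) and 2.98 ± 0.77 FPKM (SD, n = 3), a difference of -1.49 in log2(FPKM + 1) (SE 0.30; limma 95% interval -2.19 to -0.79; limma adjusted p = 0.998). These values rest on 34 fragments over the LIT-927 group and 160 over the vehicle group. The pooled rate was 6.06 times higher with vehicle (exact 95% interval 4.16 to 9.05, for counting error only).

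S100a8 encodes the smaller subunit, which pairs with S100A9 in the secreted complex. It stood at 2.80, 1.36 and 2.46 FPKM in the vehicle libraries. With LIT-927 it was at 3.43, 3.20, 0.0795 and 3.29 FPKM, so that 3 of the 4 LIT-927 libraries exceeded every vehicle library and replicate 3 lay far below all. Group levels were 2.5 ± 1.62 against 2.21 ± 0.76 FPKM. The pooled rate with vehicle was 0.874 times that with LIT-927 (exact 95% interval 0.660 to 1.153, for counting error only). The mean of FPKM was higher and the mean of log2(FPKM + 1) lower with LIT-927, and that log2 difference of -0.04 (SE 0.53; limma 95% interval -1.28 to 1.19) became 0.46 without LIT-927 replicate 3. No direction can be given for S100a8.

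The balance between the subunits was therefore unlike in the vehicle libraries and in LIT-927 replicates 1, 2 and 4, while LIT-927 replicate 3 was undetermined. Of all S100a8 and S100a9 fragments, S100a8 made up 35.6% (exact Clopper-Pearson 95% interval 26.4% to 45.6%), 26.1% (16.3% to 38.1%) and 44.7% (33.3% to 56.6%) in vehicle replicates 1, 3 and 4. Its share was 86.3% (73.7% to 94.3%), 95.3% (84.2% to 99.4%) and 65.2% (52.8% to 76.3%) in LIT-927 replicates 1, 2 and 4. The intervals of vehicle replicate 4 and LIT-927 replicate 4 overlapped. In LIT-927 replicate 3 each subunit had 1 fragment, which leaves the share undefined between 1.26% and 98.7%. On the FPKM scale, which takes gene length into account, S100a8 was 0.472 to 1.08 times S100a9 in the vehicle libraries and 8.40, 27.4, 1.34 and 2.51 times in LIT-927 replicates 1 to 4. The lengths implied by the FPKM were 392 bases for S100a8 and 524 for S100a9, against 694 and 522 in GENCODE. The size of the ratio thus depends on the annotation, while its order among libraries does not. The ratio was formed after the values were seen, so it carries no test. The exact intervals and the limits set by 0 fragments cover counting error only, since fragments amplified by PCR are not independent molecules.

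**Figure D2:**
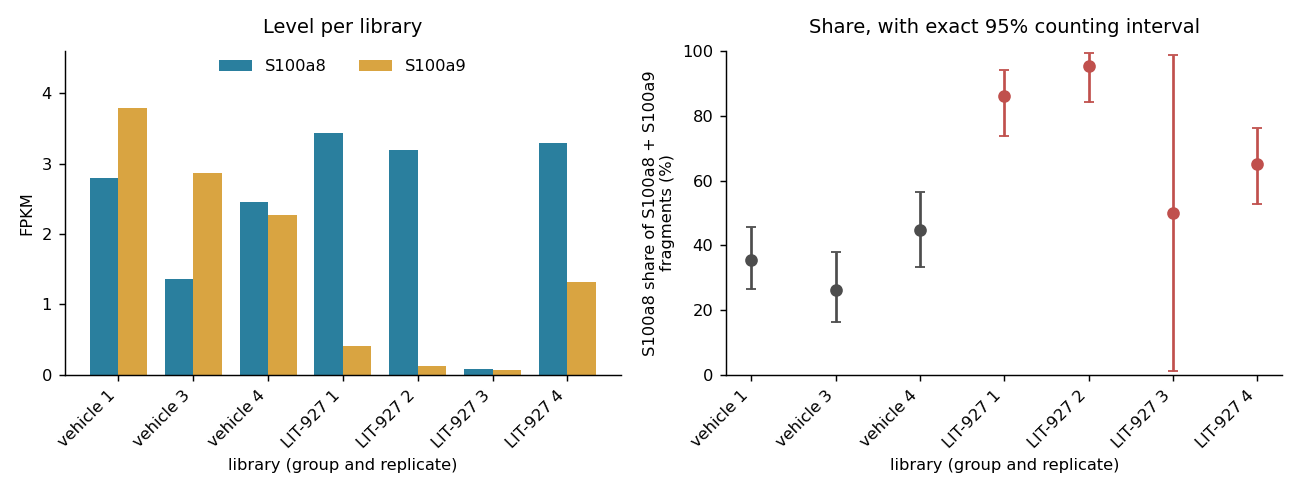
Left, FPKM of S100a8 and S100a9 in each library, as bars from 0. Right, the share of S100a8 among the fragments of both genes (points), with exact 95% intervals for counting error (bars). The vehicle shares lie between 26.1% and 44.7%, those of LIT-927 replicates 1, 2 and 4 between 65.2% and 95.3%, and LIT-927 replicate 3, with 2 fragments in all, is undetermined.

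Among granule proteins, Ngp (neutrophilic granule protein, related to the cathelicidins) had the smallest limma p of all 16019 genes (unadjusted p = 7.23e-05). It stood at 0.588, 0.483 and 0.342 FPKM in the vehicle libraries, on 23, 19 and 14 fragments. In LIT-927 replicates 1 to 4 it was at 0, 0, 0.0537 and 0.0494 FPKM, on 0, 0, 2 and 2 fragments. A count of 0 there allows up to 0.0791 FPKM (3 fragments), which is still below the lowest vehicle library. The difference was -0.52 in log2(FPKM + 1) (SE 0.07; limma adjusted p = 0.998), a scale that understates changes at such low levels. The adjusted p of Ngp in limma was 0.084 under median-of-ratios scaling and 0.0699 under upper-quartile scaling, and lay between 0.0699 and 1.0 over all alternatives. The pooled rate was 18 times higher with vehicle (exact 95% interval 6.66 to 68.4).

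Camp encodes the cathelicidin antimicrobial peptide CRAMP of the specific granules. It stood at 0.198, 0.197 and 0.0946 FPKM with vehicle and at 0, 0.0511, 0.0520 and 0 FPKM with LIT-927. Groups did not overlap, yet these are 4, 4 and 2 fragments against 0, 1, 1 and 0. The limit that 0 fragments allow, 0.144 FPKM in LIT-927 replicate 4 and 0.154 in replicate 1, exceeds the value of vehicle replicate 4, so that library cannot be set apart at this depth. The pooled rate was 6.43 times higher with vehicle (exact 95% interval 1.37 to 60.4), and the log2(FPKM + 1) difference was -0.18 (SE 0.05).

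Retnlg (chromosome 16, 48872621 to 48874496, plus strand) encodes resistin-like gamma, a secreted protein of bone marrow and neutrophils. It had 10, 7 and 2 fragments in the vehicle libraries (0.488, 0.340 and 0.0932 FPKM) and 0 in all 4 LIT-927 libraries. Pooled over the groups, the vehicle rate was 8.15 times the rate that 3 fragments over the LIT-927 group would give. That value leaves out counting error in the 19 vehicle fragments, so it is not a lower limit. Single LIT-927 libraries at 0 allow up to 0.142 to 0.154 FPKM, so vehicle replicate 4 was again within their reach. The fitted difference was -0.37 in log2(FPKM + 1) (SE 0.10; limma adjusted p = 0.998).

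Ltf encodes lactoferrin, an iron-binding protein of the specific granules and of glandular secretions. It was the most abundant member by far, at 4.85, 23.4 and 9.19 FPKM with vehicle and at 27.4, 34.3, 0.0341 and 20.4 FPKM with LIT-927. The libraries thus spanned 3 to 3076 fragments, and LIT-927 held both the highest and the lowest value. The pooled rate with vehicle was 0.603 times that with LIT-927 (exact 95% interval 0.579 to 0.628). That interval covers counting error only and not the spread between libraries. Group levels were 20.5 ± 14.8 and 12.5 ± 9.7 FPKM, and the log2(FPKM + 1) difference of 0.11 had a limma 95% interval of -2.74 to 2.95. LIT-927 replicate 3 decided that value: without it the difference was 1.30. It was also -0.03 under median-of-ratios scaling and -0.92 in voom on fragments (on a scale of log2 counts per library total), so Ltf has no stable direction here. Its levels did not follow those of Camp and Ngp, with which it shares the granule: Pearson r over the 7 libraries was -0.139 with Camp and -0.123 with Ngp, against 0.937 between Camp and Ngp (log2(FPKM + 1), a description).

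Of the receptors, Csf3r (chromosome 4, 126024550 to 126044440, plus strand) encodes the receptor for G-CSF, the growth factor of the neutrophil lineage. It stood at 0.436, 0.228 and 0.360 FPKM with vehicle and at 0.153, 0.107, 0.00776 and 0.150 FPKM with LIT-927. All LIT-927 libraries were below all vehicle libraries, and the pooled rate was 3.24 times higher with vehicle (exact 95% interval 2.36 to 4.50). With 141 and 56 fragments it is, beside S100a9, the best counted of the members without overlap. The difference was -0.28 in log2(FPKM + 1) (SE 0.08; limma adjusted p = 0.998).

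Cxcr2 (chromosome 1, 74153989 to 74161246, plus strand) encodes the receptor through which neutrophils follow CXC chemokines. It had 6, 9 and 2 fragments with vehicle and 0, 0, 0 and 6 with LIT-927 (0.0571, 0.0852 and 0.0182 FPKM against 0, 0, 0 and 0.0551). Groups overlapped, since LIT-927 replicate 4 matched vehicle replicate 1. The difference was -0.06 in log2(FPKM + 1) (SE 0.04; limma adjusted p = 0.998), within the spread between libraries. The pooled rate was 3.65 times higher with vehicle (exact 95% interval 1.37 to 11.3, for counting error only).

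Il1r2 (chromosome 1, 40074079 to 40125231, plus strand) encodes the decoy receptor that binds interleukin-1 without signalling. It stood at 0.255, 0.431 and 0.392 FPKM with vehicle and at 0.0458, 0.0686, 0.361 and 0.118 FPKM with LIT-927. Here LIT-927 replicate 3, lowest for S100a8, S100a9, Csf3r and Ltf, was the highest of its group and within the vehicle range. The 2 libraries high in uroplakin genes were also those with the highest Il1r2 in each group, and the part of that tissue in the values was not tested. The difference was -0.25 in log2(FPKM + 1) (SE 0.10; limma adjusted p = 0.998). The pooled rate was 2.45 times higher with vehicle (exact 95% interval 1.73 to 3.50, for counting error only). GENCODE lists an antisense gene and another transcript model overlapping Il1r2, and whether the counting used strand is not stated in the labels.

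Trem1 (chromosome 17, 48232768 to 48246924, plus strand) encodes a receptor that amplifies inflammatory signals in neutrophils and monocytes. It was near the limit of detection, with 2, 5 and 3 fragments in the vehicle libraries and 0, 2, 0 and 0 in the LIT-927 libraries. No difference was detectable at this depth between single libraries. The pooled rate was 6.43 times higher with vehicle (exact 95% interval 1.37 to 60.4), and the difference was -0.03 in log2(FPKM + 1) (SE 0.03). GENCODE places a processed pseudogene on the opposite strand within the gene.

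**Figure D3:**
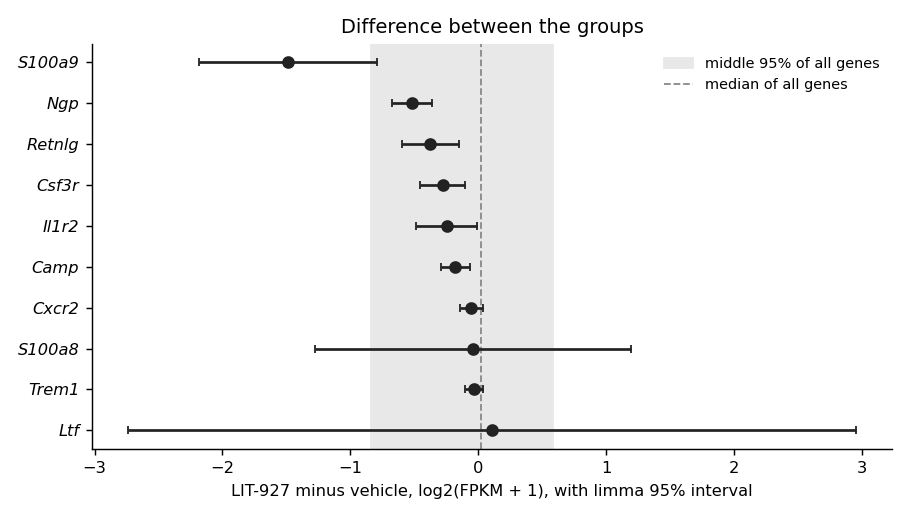
Difference of each gene, LIT-927 minus vehicle in log2(FPKM + 1), as points with limma 95% intervals as bars. The grey band spans the middle 95% of all genes (-0.837 to 0.58) and the dashed line marks their median. Only S100a9 lies outside the band, and the intervals of S100a8 and Ltf are wide. Members with vehicle means of at most 0.471 FPKM (Ngp and the scarcer ones) could not reach its lower edge on this scale. Retnlg, at 0 in every LIT-927 library, stands at only -0.37, so a place inside the band says little for them.

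By mean FPKM with vehicle, the order was Ltf, S100a9, S100a8, Ngp, Il1r2, Csf3r, Retnlg, Camp, Cxcr2 and Trem1. Ltf lay above S100a9 in all 3 vehicle libraries, while S100a9 and S100a8 (2.98 ± 0.77 and 2.21 ± 0.76), and the run from Ngp to Retnlg (0.471 ± 0.124 to 0.307 ± 0.200), did not differ beyond their spread. With LIT-927 the order was Ltf, S100a8, S100a9, Il1r2, Csf3r, Camp, Ngp, Cxcr2, Trem1 and Retnlg. The places after Csf3r in the LIT-927 order rest on 0 to 6 fragments per gene over the group, so those 5 genes cannot be ordered among themselves at this depth.

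Across the 7 libraries, the 28 pairs among the 8 members other than S100a8 and Ltf had a median Pearson r of 0.694 on log2(FPKM + 1), from 0.28 to 0.941. The 16 pairs of S100a8 or Ltf with these 8 had a median of 0.018, from -0.65 to 0.469, and S100a8 and Ltf had 0.799 with each other. These are descriptions over 7 libraries that share the group difference, and the split into 8 and 2 was made after the values were seen. Of 12343 genes with at least 1 FPKM in any library, those most like S100a9 were Rnf157 (r = 0.996), Slc25a12 (0.979) and Ephb4 (0.976). Those most like Ngp were Hp (0.976), Ifi27l2a (0.969) and Slc25a12 (0.949). Hp encodes haptoglobin, a haemoglobin-binding plasma protein that is also stored in neutrophil granules. S100a8 was most like Arl4c (0.985), Tpst2 (0.985) and Sost (0.983), and Ltf most like Cdcp1 (0.977), Castor2 (0.969) and Eps8 (0.966).

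Red cell markers varied with part of this pattern. The summed FPKM of the 6 measured red cell genes, mostly haemoglobin chains, was 582.2, 281.1 and 253.2 with vehicle. With LIT-927 it was 40.81, 30.92, 35.96 and 337.0, again in the order of the replicates. LIT-927 replicate 4, with red cell markers inside the vehicle range, also had the highest S100a9 (1.31 FPKM) and the only Cxcr2 fragments of its group. All 6 red cell genes had a lower mean with LIT-927, and 0 of them passed in limma. The part of blood in the neutrophil values was not tested. In that library Ngp was at 0.0494 and Csf3r at 0.150 FPKM, and Retnlg and Camp had 0 fragments.

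**Figure D4:**
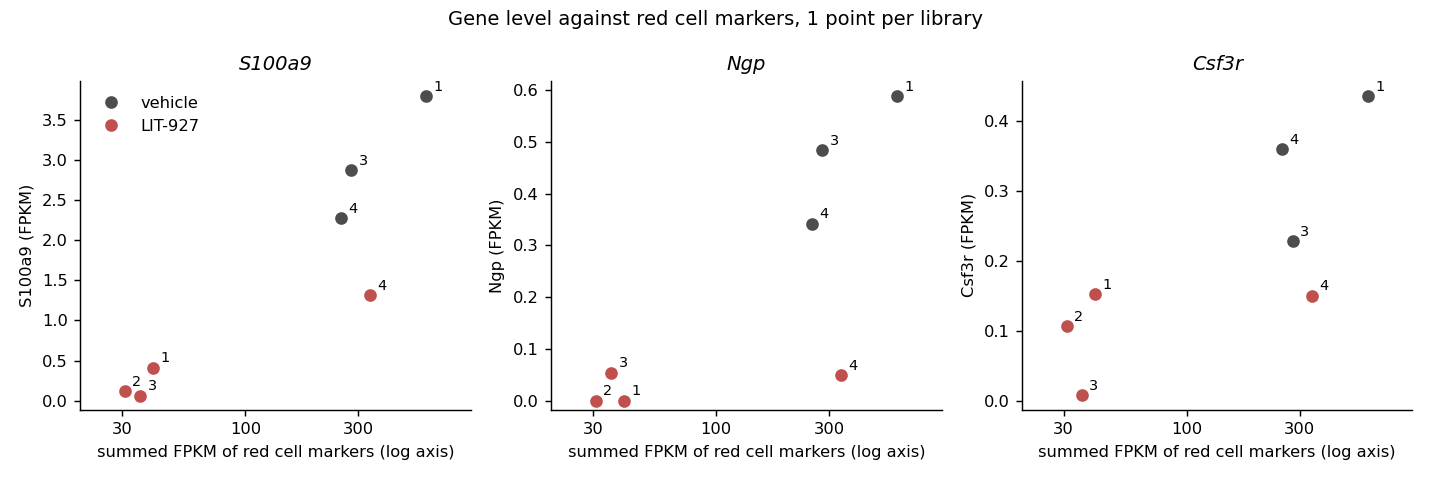
FPKM of S100a9, Ngp and Csf3r (linear axes) against the summed FPKM of red cell markers (log axis), with 1 point per library and its replicate number. LIT-927 replicate 4 stands at 337.0 on the x axis, among the vehicle libraries, and below them on each y axis.

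Other leukocyte markers also had lower values with LIT-927. Ptprc, the CD45 antigen of all leukocytes, was at 3.23, 1.32 and 2.63 FPKM with vehicle and 0.657, 1.04, 0.456 and 1.11 with LIT-927, again without overlap. Macrophage markers were lower in 11 of 12 genes, with summed FPKM of 84.56 to 212.4 with vehicle and 38.98 to 90.69 with LIT-927, and the groups overlapped. T cell markers were lower in 8 of 8, with sums of 4.247 to 10.47 against 1.674 to 3.056. Monocyte markers were lower in 7 of 8, with sums of 57.11 to 205.0 against 12.91 to 189.9. A lower mean was found for 44.5% of all genes. At an unadjusted limma p under 0.05 stood 6 of 8 T cell, 4 of 8 monocyte and 5 of 12 macrophage genes, beside 3.68% of all genes. Groups did not overlap for 3 T cell, 2 monocyte and 1 macrophage genes, beside 2.12% of all genes. No gene of these lists passed in limma, and whether the neutrophil genes differed apart from leukocytes at large was not tested. The vas deferens and epididymis list went the other way, and its 5 measured genes were all higher in mean with LIT-927. Their summed FPKM was 9418, 96.82 and 1887 with vehicle and 19610, 10090, 18.64 and 7033 with LIT-927. S100a8 was lowest of its group in vehicle replicate 3 and LIT-927 replicate 3, where that list was lowest too, and the part of that tissue in the S100a8 level was not tested.

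Further neutrophil genes were taken from lists drawn up by gene function, and the counts of lower and higher genes rest on the mean of log2(FPKM + 1). Of the azurophil granule genes, Mpo, myeloperoxidase, had 6, 6 and 4 fragments with vehicle and 0, 1, 0 and 0 with LIT-927, without overlap. Serpinb1a, an inhibitor of granule proteases, and Bpi, a bactericidal protein, overlapped between the groups, at 9.19 ± 6.77 against 5.18 ± 5.99 FPKM and at 0.141 ± 0.131 against 0.363 ± 0.252 FPKM (vehicle against LIT-927). Elane, Prtn3, Ctsg, Ms4a3 and the surface marker Ly6g were not among the 16019 genes listed.

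Of 11 secondary and tertiary granule genes, 8 had a lower and 3 a higher mean with LIT-927, with a median difference of -0.81, and 3 had groups that did not overlap. These were Hp, Chil3 and Chil1, beside the 2.12% of all genes. Hp was at 2.03, 2.20 and 1.12 FPKM with vehicle and 0.387, 0.387, 0.625 and 0.618 with LIT-927, so the lowest vehicle library was above every LIT-927 library. Chil3, the chitinase-like protein Ym1 of neutrophils and macrophages, was at 0.116, 0.211 and 0.203 against 0.0398, 0.0398, 0 and 0.0186 FPKM. Lyz2, lysozyme, which macrophages also make, was at 131 ± 68 with vehicle and 43.7 ± 21.2 FPKM with LIT-927, and Cybb, the NADPH oxidase subunit, at 3.31 ± 1.65 and 1.20 ± 0.50 FPKM. The 3 genes with a higher mean, named after their values were seen, were Lcn2, Pglyrp1 and Mmp9. Lcn2, the iron-siderophore binder lipocalin-2, was at 57.6, 32.7 and 88.0 FPKM with vehicle and 317, 326, 9.82 and 173 with LIT-927. Pglyrp1, a peptidoglycan recognition protein, was at 33.4, 14.3 and 33.7 against 165, 204, 0.503 and 90.5 FPKM. As for S100a8, LIT-927 replicates 1, 2 and 4 were above every vehicle library and replicate 3 below them all. Mmp9, gelatinase B, was at 1.96 ± 1.36 with vehicle and 2.65 ± 1.59 FPKM with LIT-927.

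Of 16 surface and signalling genes, 14 were lower and 2 higher in mean (Itgam and Il1rap), with a median difference of -0.17. Groups did not overlap for 4 of the 16, among them Pirb, Clec4d and Csf2rb, beside 2.12% of all genes. Clec4d, a C-type lectin of myeloid cells, was at 0.156, 0.155 and 0.170 FPKM with vehicle and 0.0229, 0, 0.0233 and 0.0644 with LIT-927. Pirb, an inhibitory immunoglobulin-like receptor, was at 1.59, 0.618 and 1.14 against 0.483, 0.247, 0.160 and 0.494 FPKM, and Itgb2, the shared chain of leukocyte integrins, at 3.34 ± 1.89 with vehicle against 1.0 ± 0.44. Of 10 cytosolic genes, 7 were lower and 3 higher in mean, with a median of -0.04, and Ncf4, a cytosolic NADPH oxidase subunit, was the one without overlap (2.42, 1.12 and 1.96 against 0.681, 0.896, 0.0365 and 0.924 FPKM). The 3 cytosolic genes with a higher mean, named after their values were seen, were Alox5ap, G0s2 and Lrg1. Alox5ap, the helper protein of leukotriene synthesis, was at 26.7, 4.40 and 20.3 FPKM with vehicle and 93.3, 130, 0.522 and 53.7 with LIT-927. G0s2, an inhibitor of triglyceride breakdown, was at 9.51, 6.34 and 5.51 against 23.5, 22.0, 5.25 and 13.4 FPKM, and Lrg1 at 9.47 ± 3.08 with vehicle and 9.62 ± 1.46. No gene of these 4 lists passed in limma. At an unadjusted limma p under 0.05 stood 1 azurophil, 4 secondary and tertiary granule, 4 surface and signalling and 2 cytosolic genes, beside the 3.68% of all genes. Groups did not overlap for 1 of 3 azurophil and 1 of 10 cytosolic genes, again beside 2.12% of all genes.

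The partners of the 10 genes were mixed. The G-CSF gene Csf3, whose product binds the Csf3r receptor, was at 0.766, 0.0762 and 0.219 FPKM with vehicle and 1.248, 1.264, 0.0161 and 0.444 with LIT-927, with overlapping groups. Cxcl1, a ligand of CXCR2, had 1 to 12 fragments with vehicle and 1 to 25 with LIT-927, the highest in LIT-927 replicate 3. The attractant genes Cxcl2, Cxcl3 and Cxcl5 were not among the genes listed. Cxcl15 was at 4.14 FPKM in vehicle replicate 3 and at most 0.351 FPKM in every other library. Of the interleukin-1 genes, 5 of 6 had a lower mean with LIT-927. Il1rn, the receptor antagonist, was at 0.116, 0.526 and 0.192 against 0.0109, 0.0327, 0.10 and 0.0409 FPKM, and Il1a at 0.0986 ± 0.0378 with vehicle against 0.0267 ± 0.00735 FPKM, both without overlap. Groups of 2 of the 6 interleukin-1 genes thus did not overlap, beside 2.12% of all genes. Il1b was at 0.784 ± 0.476 and 0.415 ± 0.216 FPKM, Il18 at 1.185 ± 0.77 and 0.661 ± 0.776, the signalling receptor Il1r1 at 6.55 ± 1.04 and 5.48 ± 4.24, and its accessory chain Il1rap at 1.249 ± 0.42 and 1.22 ± 0.05, all with overlap.

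Tyrobp, the adapter through which TREM1 signals, was at 29.7, 9.97 and 17.8 FPKM with vehicle and 11.5, 10.6, 5.31 and 12.6 with LIT-927, with overlap. Trem2, of macrophages, was at 4.35 ± 1.71 and 5.72 ± 3.73 FPKM, and Treml4 at 0.345 ± 0.253 and 0.0956 ± 0.113 FPKM. Treml1 and Treml2 had at most 8 fragments in any library. Of genes for calprotectin receptors and related proteins, Tlr4 was at 1.82 ± 0.84 with vehicle and 1.46 ± 0.47 FPKM with LIT-927, Ager (RAGE) at 0.773 ± 0.499 and 0.357 ± 0.244, Cd36 at 4.82 ± 3.18 and 1.39 ± 0.76, Cd33 at 0.482 ± 0.277 and 0.267 ± 0.095, Cd69 at 0.120 ± 0.051 and 0.0314 ± 0.0302 and Bsg at 206 ± 69.6 and 233 ± 17.8. All 6 had overlapping groups.

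Of 15 other S100 genes, among which S100pbp encodes a binding protein and not an S100 protein, 7 were lower and 8 higher in mean, with a median of 0.10, and none was without overlap. S100a4, of fibroblasts and leukocytes, was at 38.7 ± 27.9 FPKM with vehicle and 11.5 ± 9.5 with LIT-927, and S100a6 at 251 ± 150 and 115 ± 50. S100g, the calcium-binding calbindin-D9k, was at 0.0609 ± 0.0619 and 1.024 ± 0.93, on 0 to 2 and 0 to 35 fragments. Of the relatives of Retnlg, Retnla, which alternatively activated macrophages make, was at 76.5, 41.9 and 11.4 FPKM against 8.77, 10.2, 4.55 and 32.5, and Retn, resistin itself, at 0.257 ± 0.070 and 0.118 ± 0.143 FPKM. Both overlapped, unlike Retnlg.

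**Figure D5:**
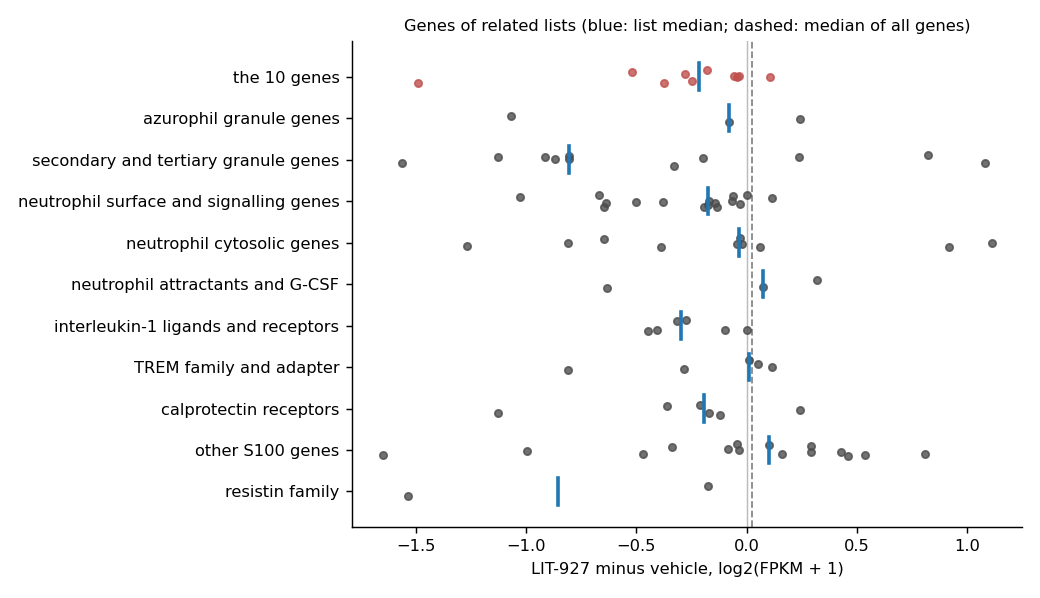
Differences, LIT-927 minus vehicle in log2(FPKM + 1), of the 10 genes (red) and of the genes of 10 related lists (grey), with 1 point per gene, list medians in blue and the median of all genes as a dashed line. List medians range from -0.85 for the resistin family, with 2 genes, to 0.10 for other S100 genes.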

How the data were processed

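Prostate RNA of 7 libraries was sequenced, and the deposited files hold FPKM that the authors computed per gene and library. Tools listed without settings, per the submitters' processing notes, are fastp, HISAT2 and HTSeq, with build mm10. Whole fragments were worked out from the values: for 16018 of 16019 genes, FPKM matched whole fragments (within 0.01) over a whole gene length. Differences were fitted with limma 3.58.1 (trend) in R 4.3.3 on log2(FPKM + 1), over all 7 libraries, with no filter or covariate, Benjamini-Hochberg adjustment over all genes and a threshold of 0.05. The fit was tested on simulated data without differences in tissue make-up. Changes there were set only in better counted genes, so the test does not cover the scarcest members. Genes, lists and tests were chosen with earlier results of these data known. Named were the 10 genes, up to 4 genes per list with the smallest p, all genes of lists of at most 6, and the 3 genes most like S100a8, S100a9, Ngp and Ltf by Pearson r. Chil1 and the granule and cytosolic genes with a higher mean were named after their values were seen, and 1 gene of the surface list is not reported here. Alternatives were other scalings, a pseudocount of 0.1, a filter, voom, a replicate block and leaving out libraries. Coordinates are from GENCODE M21 and promoters from RefSeq, both on GRCm38. All 10 symbols matched.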

Additional observations from a re-analysis of the deposited data

Results flagged for a closer look

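In a group of 4 libraries, 1 library lay far from the other 3 in 4 of 15 groups tested. Chance flags about 1 in 20 groups of continuous values, a rate that does not apply to Cxcr2 and Trem1, where the other 3 libraries were all at 0 and any fragment would have been flagged. S100a8 was at 0.0795 FPKM in LIT-927 replicate 3, against 3.20 to 3.43 FPKM in the others. Cxcr2 was at 0.0551 FPKM in LIT-927 replicate 4 and at 0 in the others. Trem1 was at 0.0170 FPKM in LIT-927 replicate 2, on 2 fragments, and at 0 in the others. The summed red cell markers were at 337.0 FPKM in LIT-927 replicate 4, against 30.92 to 40.81 FPKM in the others.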

How the results depend on the processing

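All 14 alternatives left 0 genes past the adjusted threshold in limma, while 259 to 1349 genes stood at an unadjusted p under 0.05 (589 as reported). S100a9, Ngp, Retnlg, Csf3r, Cxcr2, Il1r2, Trem1 and Camp kept a lower value with LIT-927 in every alternative in which they were tested. With libraries left out this was fixed in advance for S100a9, Ngp, Retnlg, Csf3r and Camp, whose groups did not overlap. S100a8 turned higher without vehicle replicate 1 (0.09), vehicle replicate 4 (0.03), LIT-927 replicate 3 (0.46) and vehicle 3 with LIT-927 3 (0.25), and leaving out 1 library gave -0.25 to 0.46. Ltf turned lower with a pseudocount of 0.1 (-0.52), median-of-ratios scaling (-0.031), upper-quartile scaling (-0.033), voom (-0.92), the replicate block (-0.40), and without vehicle replicate 1 (-0.37), LIT-927 replicate 1 (-0.30), 2 (-0.40) and 4 (-0.16), and leaving out 1 library gave -0.40 to 1.30. The causes were not tested. With the replicate block, 627 genes stood at an unadjusted limma p under 0.05. LIT-927 replicate 2 has no same-numbered vehicle library, so the block fit gave the same differences as leaving it out (S100a9 -1.38 in both). These 2 alternatives are thus not separate checks of the differences. Deviations of same-numbered libraries correlated at 0.565, 0.700 and -0.238, which differ in sign. So few pairs, in tissue pieces of unlike make-up, cannot show whether the numbers paired the samples. Leaving out libraries cannot create overlap, so a count of at least 5 genes without overlap was fixed in advance for those settings. Genes without overlap between groups numbered 5 of the 10 as reported, and 5 to 7 when 1 library was left out, a count added after seeing the data. Over all genes that share was 2.12% as reported, 5.0% and 5.06% under the 2 scalings, 5.2% without vehicle 3 and LIT-927 3 (6 of the 10), and, with 1 library left out, 16.8% (vehicle replicate 4), 4.76% (LIT-927 replicate 4), 4.05% (vehicle replicate 3) and 2.5% to 3.29% for the others. Depth limits Trem1, Camp, Cxcr2 and Retnlg, which had at most 10 fragments in any library.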
